A study of Mus musculus with 9 samples.

Results

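Transcripts of complement components and complement regulators were examined in the central cornea of 3 inbred mouse strains. The group was defined as 8 genes, the activation components C3, C4b, Cfb and Cfd and the regulators Serping1, Cd55, Cd59a and Cd46, and a gene was taken up where the array had a probe set annotated to that gene alone. This held for 5 of the 8 genes, which had 8 probe sets among the 45037 on the array that were not controls, and these 5 stood among 18193 genes identified in the same way. The C4b probe set was annotated to several genes and could not be assigned, and C3 and Cfd were not analysed here. The activation side was therefore represented by Cfb alone, and the regulators by Serping1, Cd55, Cd59a and Cd46.

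The groups were adult male SJL/J mice (SJL), labelled as having a thick cornea, C57BLKS/J mice (KS), labelled as having a thin cornea, and C57Bl/6J mice (B6), with no thickness given. The mice were 4 months old and untreated as far as the labels say. Each of the 9 arrays, 3 in each strain, carried RNA from 1 mouse, taken with a 2-mm punch from the middle of both corneas. Strain and corneal thickness cannot be told apart in this design, and with tissue RNA a smaller number of cells of a type cannot be told apart from less RNA per cell. Whether sequence differences between the strains under the probes changed any signal was not tested.

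Complement is a cascade of plasma and locally made proteins that tags surfaces and recruits leukocytes. The classical and lectin pathways work through C4 and C2, the alternative pathway works through factor B (Cfb) and factor D (Cfd), and all of them meet at C3, after which the terminal components can form a pore in a membrane. Host cells restrain the cascade with the C1 inhibitor (Serping1), a secreted serpin that blocks the proteases C1r, C1s and the MASPs, with decay-accelerating factor (Cd55) and membrane cofactor protein (Cd46), which act on the C3 convertases or on C3b and C4b, and with CD59 (Cd59a), which blocks the membrane pore. In the eye, complement is held in check under steady conditions, and corneal cells are known to carry membrane regulators.

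The 3 regulators with signal each had a pattern of their own. Cd55 was highest in SJL, intermediate in KS and lowest in B6. Serping1 was lower in SJL than in either other strain. Cd59a was higher in KS than in either other strain by its brighter probe set. Cd46 and Cfb lay near the bottom of the scale in each of the 9 mice.

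Values are probe set intensities on the linear scale on which they were deposited, and a gene is given by the brightest of its probe sets, judged by the mean of the 9 arrays. Differences were tested with limma on log2(intensity + 10) over 22519 probe sets, after probe sets with a mean below about 8.01 had been left out, and a difference was called where the Benjamini-Hochberg adjusted p over all of them lay under 0.05. Serping1, Cd55 and Cd59a passed that filter, with levels above it in every strain, while Cd46 and Cfb did not. Of the 3 tested genes 1 was higher and 2 were lower in SJL against KS, where 6.8% of the 10956 genes tested were higher and 8.08% lower (14.9% in all). In KS against B6 2 were higher and 0 lower, against 3.4% and 2.87% of genes (6.27% in all). In the comparison of SJL with B6 1 was higher and 1 lower, against 8.39% and 7.68% of genes (16.1% in all). The median log2 difference of the 3 genes was -1.13, 0.78 and -0.36 in these contrasts, in that order, against 0.02, 0.01 and 0.02 over all genes tested. With 3 genes this is the value of 1 of them, Serping1 in SJL against KS and Cd59a in the other contrasts. It does not describe a shift of the group.

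**Figure D1:**
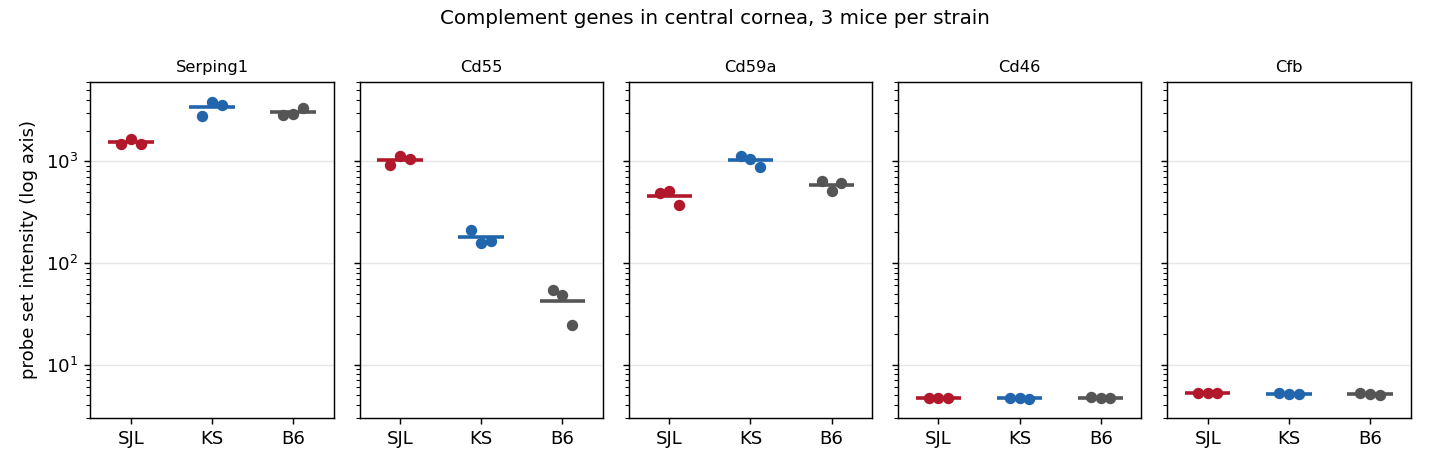
Probe set intensity (log axis) of the 5 genes in SJL, KS and B6, where each point is 1 mouse and each bar the mean of 3. Cd55 forms 3 separate levels, Serping1 is low in SJL, Cd59a is high in KS, and Cd46 and Cfb lie near 5 on every array.

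Cd55 encodes a surface protein, anchored by glycosylphosphatidylinositol in most cells, that speeds the decay of the C3 convertases. The SJL mice had intensities of 929, 1132 and 1052, the KS mice 213, 158 and 165, and the B6 mice 53.7, 48.5 and 24.4. The 3 strains formed 3 levels that did not overlap. The mean was 1038 ± 102 in SJL, 178 ± 29.9 in KS and 42.2 ± 15.6 in B6 (SD, n = 3 each), which put SJL at 5.82 times KS and 24.6 times B6, and KS at 4.23 times B6. On the log2 scale the difference was 2.48 for SJL against KS (standard error 0.23, limma adjusted p = 0.000167), 1.89 for KS over B6 (0.23, adjusted p = 0.00165) and 4.37 for SJL against B6 (0.23, adjusted p = 6.18e-06).

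Cd55 had 2 further probe sets, and both gave the same order of strains without overlap. The second had 313, 457 and 420 in SJL, 105, 87.9 and 70.3 in KS and 44.9, 37.5 and 44.0 in B6. The third had 261, 223 and 241 in SJL, 64.8, 64.8 and 57.2 in KS and 38.7, 15.2 and 28.4 in B6. The size of the difference depended on the probe set. SJL stood at 9.42 and 8.81 times B6 by these 2 probe sets, against 24.6 times by the brightest, and KS at 2.08 and 2.27 times B6, against 4.23 times. Each of the 3 contrasts was called for each of the 3 probe sets, with limma adjusted p-values of 0.0194 and 0.0294 for KS against B6 by the second and the third. The neighbouring gene Cd55b, a second decay-accelerating factor of the mouse, gave 5.14 to 6.10 over the 9 arrays and was not tested.

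The bases upstream of Cd55 and Cd59a are shown because these were the 2 genes that differed between KS and B6. They are the RefSeq reference sequence of C57BL/6J in the build GRCm38.p6 for the 250 bases before the start, so they show no KS or SJL allele. Cd55 lies at chr1:130462745-130462994 on the minus strand and Cd59a at chr2:104095551-104095800 on the plus strand, and capitals mark matches to the GC box.
Cd55: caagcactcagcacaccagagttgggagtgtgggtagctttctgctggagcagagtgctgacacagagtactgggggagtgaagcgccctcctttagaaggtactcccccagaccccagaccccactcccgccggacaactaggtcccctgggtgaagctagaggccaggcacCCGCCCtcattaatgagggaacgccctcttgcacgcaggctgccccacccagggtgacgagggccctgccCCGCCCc
Cd59a: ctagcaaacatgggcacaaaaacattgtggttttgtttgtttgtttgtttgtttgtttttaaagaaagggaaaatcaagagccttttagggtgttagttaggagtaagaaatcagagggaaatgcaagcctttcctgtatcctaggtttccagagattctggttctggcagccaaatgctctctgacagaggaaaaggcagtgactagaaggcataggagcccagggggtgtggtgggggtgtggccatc
Both strands were searched for the GC box (GGGCGG), the CCAAT box (CCAAT), the TATA box (TATAAA) and the interferon-gamma activated site (TTCNNNGAA). The Cd55 window held 2 GC boxes on the opposite strand, beginning 77 and 7 bases before the start, and no other match. The Cd59a window held no match to any of them. Over 32851 promoter windows of the same length, 32.7% held a GC box, 33.8% a CCAAT box, 12.4% a TATA box and 7.02% an interferon-gamma activated site. The same table was matched by 3 of the 5 genes, Cd55, Cd59a and Cd46.

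Serping1, the C1 inhibitor, also restrains the contact system of plasma. It had intensities of 1499, 1649 and 1486 in SJL, 2809, 3800 and 3617 in KS and 2854, 2925 and 3342 in B6. Every SJL mouse lay below every mouse of the other strains, while KS and B6 overlapped. The mean was 1545 ± 90.4 in SJL, 3409 ± 528 in KS and 3041 ± 264 in B6 (SD, n = 3 each). Serping1 differed on the log2 scale by -1.13 in SJL against KS (standard error 0.13, limma adjusted p = 0.000621) and -0.97 in SJL against B6 (0.13, adjusted p = 0.00133). In KS against B6 it was 0.16, with a 95% interval of -0.14 to 0.45 (adjusted p = 0.563), so a difference beyond the spread between mice was not detected there. Serping1 had 1 probe set, and no second one checked it.

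Cd59a is the mouse gene for the CD59 that is widely expressed outside the testis. It had 490, 512 and 373 in SJL, 1129, 1052 and 885 in KS and 635, 514 and 619 in B6. All KS mice lay above all mice of the other strains, and every SJL mouse lay below every B6 mouse by a narrow margin. The mean was 458 ± 74.6 in SJL, 1022 ± 124 in KS and 589 ± 65.5 in B6 (SD, n = 3 each). The log2 difference was -1.15 in SJL against KS (standard error 0.15, limma adjusted p = 0.00138), 0.78 in KS against B6 (0.15, adjusted p = 0.0204) and -0.36 in SJL against B6 (0.15, adjusted p = 0.154, 95% interval -0.71 to -0.02), the last not called.

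The second Cd59a probe set was called in KS against B6, as the brighter one was, but not in SJL against KS. It had 179, 242 and 171 in SJL, 312, 262 and 263 in KS and 174, 144 and 97.0 in B6. Its log2 difference was 0.99 in KS against B6 (limma adjusted p = 0.0290), -0.49 in SJL against KS (adjusted p = 0.159) and 0.50 in SJL against B6 (adjusted p = 0.153). The sign in SJL against B6 was thus opposite for the 2 probe sets, and neither was called. For the brighter probe set the call in KS against B6 was lost without KS replicate 1 (adjusted p = 0.0698), KS replicate 2 (0.0875) or B6 replicate 2 (0.0647), and when dim probe sets were kept in the fit (0.0724). SJL against B6 was called with array weights (log2 difference -0.61, adjusted p = 0.0106).

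**Figure D2:**
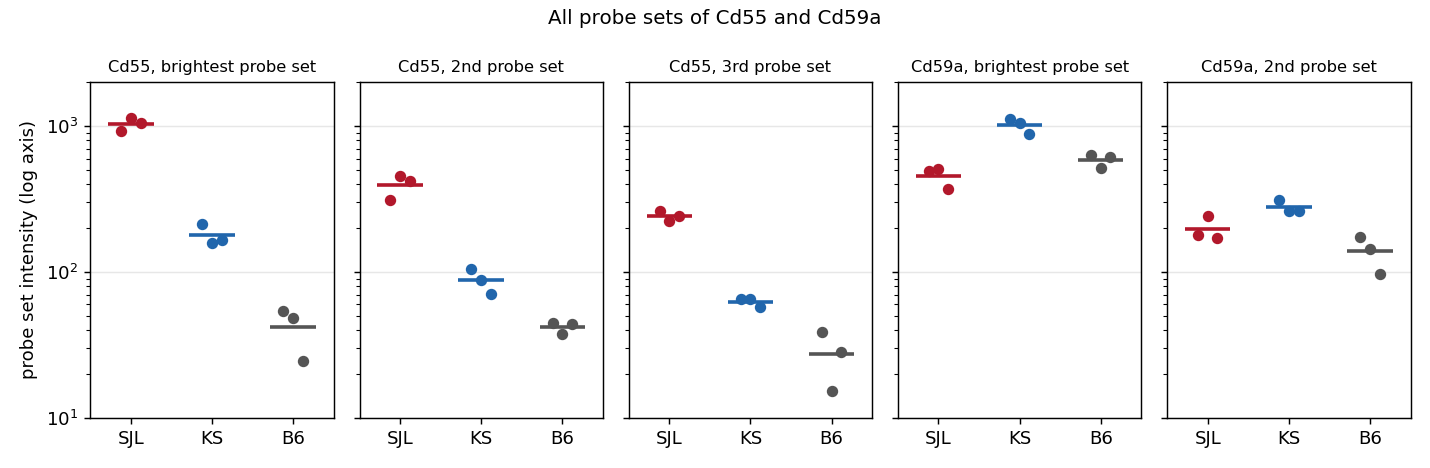
Intensity (log axis) of the 3 probe sets of Cd55 and the 2 of Cd59a in SJL, KS and B6, with 1 point per mouse and a bar at the mean of 3. The Cd55 probe sets keep the order SJL, KS, B6 from high to low, and the Cd59a probe sets share the high KS level but place SJL and B6 in opposite order.

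Cd46 and Cfb gave no level that could be compared. Cd46, which in the mouse is largely restricted to the testis, had 4.71 to 4.72 in SJL, 4.63 to 4.72 in KS and 4.66 to 4.77 in B6. Cfb, the protease subunit of the alternative pathway convertase, had 5.20 to 5.23 in SJL, 5.10 to 5.25 in KS and 5.06 to 5.24 in B6. Both overlapped among all 3 strains. Such levels do not show how much transcript was present, because a probe set can read low where another of the same gene does not. The dimmest C1qb probe set had 5.04 to 9.61 over the 9 arrays, where the brightest had 175 to 651. Within the defined group a comparison of activation components with regulators therefore could not be made. Cfb and C4b lie in the class III region of the H2 complex. There 1 of the 10 listed genes tested was called in SJL against KS, beside 14.9% of all genes. In KS against B6 and SJL against B6 0 were called, beside 6.27% and 16.1% of all genes. The called gene was Hspa1a (log2 difference 0.45, limma adjusted p = 0.0270). At an unadjusted p under 0.05 limma gave 2 such genes higher in SJL against KS, beside 1502 of the 10956 genes tested. It gave 1 lower in KS against B6, beside 983, and 1 higher in SJL against B6, beside 1792. Hspa1b, counted by its brightest probe set, was called by 1 of its dimmer probe sets in SJL against KS (0.36, adjusted p = 0.0450) and by the other in KS against B6 (-0.47, adjusted p = 0.0396).

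The genes whose profile over the 9 arrays lay closest to each regulator were found as the smallest root mean square difference of centred log2 values among the 10956 genes tested. For Serping1 these were Pop4, at a root mean square difference of 0.10 with means of 1068 in SJL, 2337 in KS and 2112 in B6, and Fancg (0.12). For Cd55 they were Padi2 (0.48), with means of 211 in SJL, 50.2 in KS and 6.83 in B6, and Fhit (0.53). The root mean square difference was larger for Cd55 than for the other regulators, but it was not scaled to a gene's own range. That range was widest for Cd55, so the closeness of the matches cannot be ranked. For Cd59a they were Npnt (0.10), with means of 1323 in SJL, 2724 in KS and 1562 in B6, and Tspan6 (0.13).

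Genes near the 3 regulators on their chromosomes were counted as the 10 nearest tested genes on each side. Around Cd55 on chromosome 1, 1 of 20 neighbours was called in SJL against KS, 1 for KS over B6 and 2 for SJL over B6, each of them lower. Around Serping1 on chromosome 2 the counts were 4, 2 and 1 of 20. Around Cd59a, also on chromosome 2, they were 7, 1 and 4 of 20. The background over all genes in these contrasts was 14.9%, 6.27% and 16.1%. The median log2 difference of the 20 neighbours of Cd55 was 0.038, 0.0036 and 0.012 in these contrasts, in that order. The part of the chromosomal region in the levels of the 3 regulators was not tested.

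The wider complement system was described with 61 genes, the 8 included, of which 48 had a probe set of their own and 17 passed the filter. In SJL against KS 4 of the 17 were higher and 7 lower, in KS against B6 2 were higher and 0 lower, and SJL exceeded B6 in 2 and lay below it in 5. Over all genes tested the shares higher and lower were 6.8% and 8.08%, 3.4% and 2.87%, and 8.39% and 7.68% in these contrasts. At an unadjusted p under 0.05 limma gave 1 lower gene in KS against B6, C1qbp, beside 983 of the 10956 genes tested. The median log2 difference of the 17 genes was -0.22, 0.09 and -0.08, in that order, against 0.02, 0.01 and 0.02 over all genes. Most of these genes gave no signal by their probe sets, which does not show that the transcripts were absent. The filter left out 31 of the 48, beside 7237 of all 18193 genes with a probe set of their own. On every array 30 of the 48 genes lay below 10, among them all 6 terminal components with a probe set, C2, C1qa, C1qc and the receptor C3ar1.

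These counts depended on single mice. The number of higher genes in SJL against KS, 4 over all arrays, was 2 without SJL replicate 2, SJL replicate 3, KS replicate 2 or KS replicate 3. The number of lower genes there, 7 over all arrays, was 4 without SJL replicate 1, KS replicate 1 or KS replicate 3. It was 3 when SJL replicate 3 or KS replicate 2 was left out. In KS against B6 the number of higher genes, 2 over all arrays, was 1 without KS replicate 1, KS replicate 2 or B6 replicate 2. The number of lower genes in SJL against B6, 5 over all arrays, was 3 without SJL replicate 3 or B6 replicate 3. Calls over all probe sets fell as well, so the loss was not particular to complement genes. Without KS replicate 2 they fell from 3489 to 2337 in SJL against KS and from 1286 to 745 in KS against B6. Without SJL replicate 3 they fell from 3605 to 2523 in SJL against B6.

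Other regulators differed in SJL as well. Susd4, a membrane protein that inhibits C3 convertase formation, was at 693, 765 and 774 in SJL, 923, 953 and 937 in KS and 1066, 1004 and 1202 in B6. SJL was lower than B6 by both probe sets (log2 difference -0.54, limma adjusted p = 0.00491, and -0.83, adjusted p = 0.00216). It was lower than KS by both as well (-0.33, adjusted p = 0.0460, and -1.01, adjusted p = 0.000795). The brighter probe set kept its call against KS in 8 of 20 alternatives. Cpn1, the catalytic subunit of the carboxypeptidase that inactivates anaphylatoxins, was at 9.38, 6.66 and 6.72 in SJL, 60.6, 63.9 and 39.8 in KS and 45.5, 49.4 and 73.1 in B6. Every SJL value was below 10, so the transcript level there is not known, and the gene passed the filter through its KS and B6 levels. Cpn1 is counted among the lower genes in both contrasts of SJL, but the size of its difference depended on the value added before taking logs, ranging over the alternatives from -2.69 to -0.86 against KS and from -2.72 to -0.87 against B6, and no fold change is given. Its second probe set was below 10 on every array.

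Thbd, thrombomodulin, an endothelial and epithelial surface protein that also aids inactivation of C3b, was at 3648, 2212 and 2152 in SJL, 1826, 1343 and 1159 in KS and 2079, 1582 and 1549 in B6. The log2 difference of 0.87 in SJL against KS (limma adjusted p = 0.0469) was called in 9 of 20 alternatives, and the 0.59 in SJL against B6 was not called (adjusted p = 0.152). C1qbp, a mostly mitochondrial protein that binds the head of C1q, was higher in SJL than in KS (3151 ± 91.0 against 2572 ± 76.5, log2 difference 0.29, adjusted p = 0.0352), a call kept in 13 of 20 alternatives. Its second probe set was not called in that contrast (0.44, adjusted p = 0.0734), and in SJL against B6 the probe sets differed in sign (0.11 by the brighter and -0.10 by the second, neither called). Cr1l and Clu were chosen after their values were seen, as abundant regulators that were not called. Cr1l, the rodent membrane regulator known as Crry, was at 3867 ± 255 in SJL, 3752 ± 366 in KS and 3489 ± 191 in B6 (SD, n = 3 each). Its 95% intervals were -0.18 to 0.28 for SJL over KS, -0.13 to 0.33 for KS over B6 and -0.08 to 0.38 for SJL over B6 on the log2 scale. Clu, clusterin, a secreted inhibitor of the terminal complex, was at 9754 ± 513 in SJL, 9998 ± 377 in KS and 10327 ± 577 in B6.

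Of 5 genes of the classical and lectin pathways that were tested, 2 were lower in SJL against KS, C1qb and Masp1, and 3 were not called. Over all genes tested 8.08% were lower in that contrast. C1qb, a chain of C1q, was at 250, 319 and 175 in SJL, 452, 651 and 347 in KS and 580, 473 and 439 in B6. SJL lay below both strains without overlap, with log2 differences of -0.93 against KS (limma adjusted p = 0.0489) and -1.01 against B6 (adjusted p = 0.0355), kept in 6 and 12 of 20 alternatives. Its second probe set gave -0.48 and -0.45 (adjusted p = 0.158 and 0.184), and the dimmest was below 10 on every array, as were C1qa and C1qc. Masp1, a protease of the lectin pathway, was at 49.4, 95.0 and 71.8 in SJL, 200, 199 and 190 in KS and 102, 136 and 253 in B6. It was called lower in SJL against KS (-1.37, limma adjusted p = 0.0187), in 13 of 19 alternatives, and was not called in SJL against B6 (-1.02, adjusted p = 0.0579). Its second probe set was not called in SJL against KS (-1.50, adjusted p = 0.0581), and 3 more lay below 10 on every array. C1s1 and C1ra, genes of the C1 complex proteases that the C1 inhibitor blocks, were not called. C1s1 was at 1559 ± 44.6 in SJL, 1619 ± 82.2 in KS and 1452 ± 221 in B6 (SD, n = 3 each), with a log2 difference of -0.05 in SJL against KS (limma adjusted p = 0.817). C1ra was at 190 ± 22.5 in SJL, 225 ± 47.0 in KS and 202 ± 45.7 in B6, with a difference of -0.22 (adjusted p = 0.496). The other gene not called was Colec12, a scavenger receptor of the collectin family (0.05, adjusted p = 0.915). Cfp, the 1 tested gene of the alternative pathway, was at 16.2, 16.8 and 10.4 in SJL, 18.3, 20.5 and 17.4 in KS and 18.9, 32.0 and 17.5 in B6. It was called neither in SJL against KS (-0.24, limma adjusted p = 0.421) nor in KS against B6 (-0.17, 0.659) nor in SJL against B6 (-0.41, 0.167). Its second probe set lay below 10 on every array.

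Of 8 receptor genes with a probe set 2 were tested, Itgam and C5ar1, and SJL differed from the other strains in opposite directions in them. The other 6 lay below 10 on every array, among them Itgb2 at 4.36 to 4.49. Itgam, the alpha chain of complement receptor 3, was at 73.9, 43.4 and 68.0 in SJL, 25.9, 22.9 and 19.3 in KS and 22.1, 13.5 and 20.2 in B6. Its log2 differences of 1.11 in SJL against KS (limma adjusted p = 0.00519) and 1.31 in SJL against B6 (adjusted p = 0.00213) were called in 19 of 19 alternatives each. C5ar1, the receptor of C5a, was at 58.5, 11.3 and 17.5 in SJL, 95.9, 117 and 165 in KS and 146, 76.3 and 133 in B6. It was called lower in SJL against KS (-1.96, adjusted p = 0.0164) and against B6 (-1.86, adjusted p = 0.0200), in 15 and 13 of 19 alternatives. Its second probe set lay below 10 on every array.

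**Figure D3:**
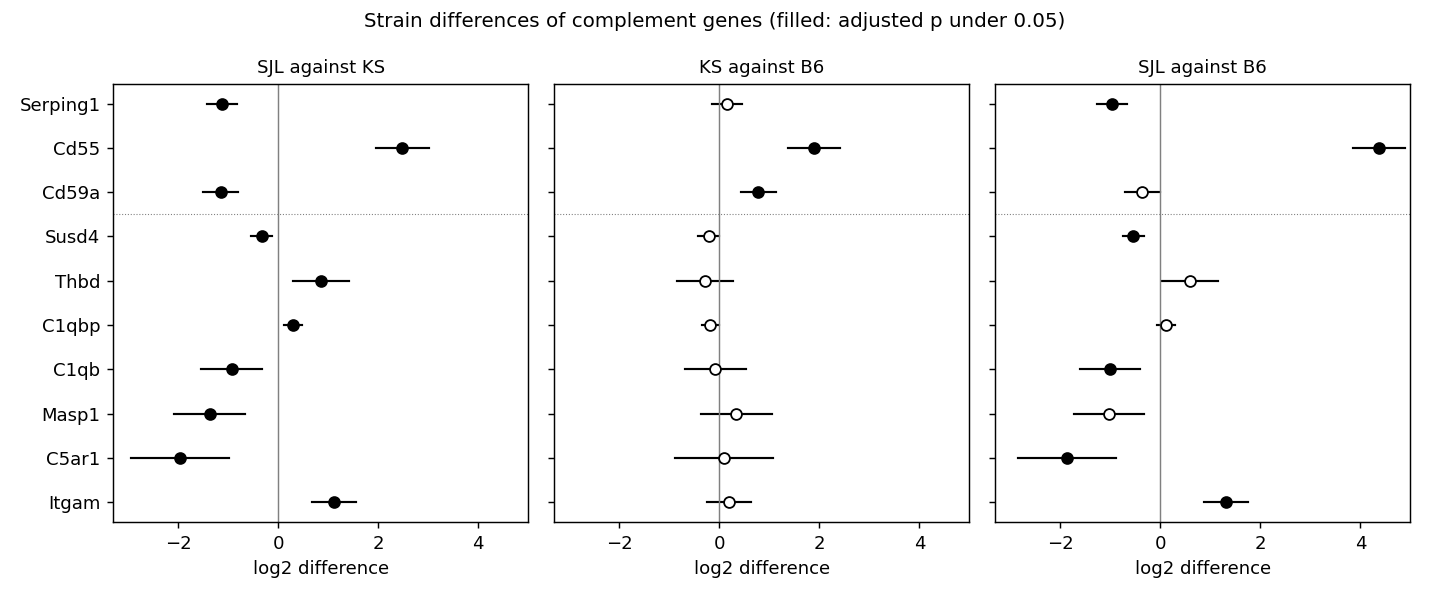
Log2 differences (x axis) with 95% intervals for 10 complement genes (rows), with a panel each for SJL over KS, KS over B6 and SJL over B6 and with the 3 regulators of the defined group above the dotted line. Filled points passed the adjusted p threshold of 0.05, and in KS against B6 this held for Cd55 and Cd59a alone among the 10.

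Arrays had upper quartiles of 380 to 396 and correlated at 0.993 to 0.998 across probe sets within a strain and at 0.983 to 0.992 between strains. Markers of cornea were abundant, the 2 brightest being Tkt and Krt12 for epithelium and Dcn and Kera for keratocytes. The summed level of the 7 epithelial markers was 132295 to 137223 in SJL, 131053 to 133984 in KS and 133969 to 137275 in B6. Of the 7 epithelial markers 1 was called, Krt14, higher in SJL against B6, where 8.39% of all genes tested were higher. Its log2 difference was 0.37 (limma adjusted p = 0.0456), with 0.54 by the second probe set (0.0187) and -0.41 by the third (0.436, not called). The 7 keratocyte markers summed to 51223 to 53486 in SJL, 57478 to 61951 in KS and 55117 to 59967 in B6, so SJL was lowest in that sum as it was in Serping1, and the part of this in the Serping1 result was not tested. The sum did not stand for each marker. The mean of Lum was 5010 for SJL, 4880 for KS and 4684 for B6. That of Angptl7 was 6625 for SJL, 5759 for KS and 5876 for B6, so both had their highest mean in SJL. Kera had a mean of 11789 for SJL, 11724 for KS and 12626 for B6. Of these 7 markers 2 were lower in SJL against KS, Dcn (log2 difference -0.37) and Aldh1a1 (-0.40), and 1 was lower in SJL against B6, Aldh1a1 (-0.49). Over all genes tested 8.08% and 7.68% were lower in these contrasts. The 4 endothelial markers with a probe set, led by Col8a2 and Slc4a11, summed to 5929 to 7204 in SJL, 7394 to 8420 in KS and 6807 to 8488 in B6.

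Of 10 macrophage and leukocyte markers, Ptprc and Adgre1, which define these cells, lay below 10 on every array, and the brightest were Cd74 and Cd68. Their summed level was 1476 to 1746 in SJL, 1693 to 2646 in KS and 1940 to 2090 in B6. In SJL against KS 2 of the markers were higher, Itgam and Cd14, and 1 lower, Cd74, and the same 3 were called in SJL against B6. Over all genes tested 14.9% and 16.1% were called in these contrasts. The part of such cells in the Itgam and C1qb values was not tested. Markers of fat were below 10 on every array for 4 of 4 genes with a probe set, those of liver for 3 of 4 (all but Ttr), those of blood and vessels for 5 of 6 (all but Kdr) and those of pigment cells for 3 of 5 (all but Pmel and Dct). Kdr, a receptor of vascular endothelium, was at 64.6, 69.1 and 49.96 in SJL, 88.8, 114 and 114 in KS and 101, 127 and 206 in B6, without overlap between SJL and either other strain. It was called lower in SJL against B6 (log2 difference -1.07, limma adjusted p = 0.0161) and not against KS (-0.70, adjusted p = 0.0857). Ttr, transthyretin, was at 6.66, 12.4 and 15.9 in SJL, 45.5, 54.7 and 261 in KS and 196, 167 and 34.2 in B6 by its brightest probe set, and was not called against KS (-2.22, adjusted p = 0.0739) or against B6 (-2.46, adjusted p = 0.0506). Both markers were thus lowest in SJL, as were Serping1, Cpn1, Masp1 and C1qb, and their part in those values was not tested.

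KS replicate 3 stood apart in photoreceptor markers, whose summed level was 4734 on it, 33.5 to 34.7 in SJL, 38.1 and 38.3 in the other KS mice and 36.6 to 42.9 in B6. Gnat1 and Sag were the brightest of the list. On the same array Vtn, vitronectin, a secreted regulator of the terminal complex, was at 68.1, against 4.03 and 4.05 in the other KS mice and 4.02 to 4.07 in SJL and B6. Without KS replicate 3 Cd55, Serping1 and Cd59a kept their calls and signs in every contrast in which they were called.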

How the data were processed

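RNA from both corneas of each of 9 mice was measured on 1-colour Affymetrix arrays. The authors deposited probe set intensities on a linear scale, running from 3.39 to 37501, per the file's values. The summary, background correction and scaling behind them are not given in the sources used here, and scanner files and scan batches were not used here. Symbols came from the platform annotation, with 1 symbol for 34945 of 45037 probe sets, several for 932 and none for 9160. A RefSeq table of GRCm38.p6 found 34741 of these by gene ID and changed 0 symbols. It supplied gene order only.

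The values were analysed as log2(intensity + 10), which understates changes of dim genes. Probe sets below the 50th percentile of mean log2 level were left out. limma 3.58.1 in R 4.3.3 fitted 1 mean per strain to all 9 arrays with 6 residual degrees of freedom (median 8.41 after moderation), and all tests were two-sided. An exact permutation of 3 against 3 mice cannot go below 0.1 and was not used. The script was tested on simulated data. Mice of a strain are taken as separate samples. Precision rests on 3 arrays per strain.

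Members, the wider complement list, marker lists and the alternatives were chosen with earlier results of these data known. All members were named, with other complement genes called in any contrast, the 2 nearest profiles per called member and the 2 brightest markers per main list. Alternatives were 2 other filters, 2 normalizations, pseudocounts of 1 and 50, array weights, a variance trend, a fit of only the 6 arrays compared, a block for the replicate number, averaging a gene's probe sets, and each array left out. Their use on complement genes other than the members was added after seeing the data.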

Additional observations from a re-analysis of the deposited data

How the results depend on the processing

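Cd55 and Serping1 kept direction and call in all 3 contrasts under each alternative that tested them. These were 19 for Cd55, which did not reach the filter at the 70th percentile, and 20 for Serping1. Not all of them could change the direction. Another filter, the variance trend or the loss of arrays outside a contrast leaves its log2 difference as it was, so these checked the call alone. Over the alternatives Cd55 ranged from 2.11 to 2.61 in SJL against KS, 1.26 to 2.12 in KS against B6 and 3.37 to 4.66 in SJL against B6 on the log2 scale. Serping1 ranged from -1.26 to -1.04 in SJL against KS and -1.02 to -0.90 in SJL against B6. Cd59a kept its call in 20 of 20 alternatives in SJL against KS (adjusted p 2.98e-05 to 0.00854 by limma) and in 16 of 20 in KS against B6 (0.00721 to 0.0875). Averaging the probe sets of a gene turned its uncalled difference in SJL against B6 to 0.068.

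Differences in KS against B6 that were not called turned sign for C1qb (0.015 with probe sets averaged), and with 1 array left out they ranged from -0.31 to 0.13 for C1qb, -0.14 to 0.15 for Cpn1 and -0.17 to 0.26 for C5ar1, turning without KS replicate 3 in all 3 genes. With no filter the members called in KS against B6 numbered 1, of 838 probe sets called in all, and the complement genes 1 higher in KS against B6, 3 lower in SJL against KS and 3 lower in SJL against B6. With the 70th percentile the members called were 1 in either contrast with B6, and the probe sets 2101 in SJL against KS, 742 in KS against B6, 2156 in SJL against B6 and 2659 for any strain difference. Complement genes then numbered 2 higher and 4 lower in SJL against KS, 1 higher in KS against B6, and 0 higher and 3 lower in SJL against B6, with fewer genes tested. With array weights, whose estimate stopped before convergence, 9450, 2232 and 7364 probe sets were called in the 3 contrasts and 10501 for any difference, and 8 complement genes were lower in SJL against B6. The cause was not tested. With only the 6 arrays compared 2 complement genes were higher in SJL against KS, and with probe sets averaged 1 was lower in KS against B6.

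With 1 array left out the members called were 1 to 2 in KS against B6, 3 in SJL against KS and 2 in SJL against B6. Probe sets called ranged from 2337 to 3643 in SJL against KS, 745 to 1452 in KS against B6, 2523 to 3674 in SJL against B6 and 3080 to 4269 for any difference. Complement genes ranged from 2 to 3 higher and 3 to 6 lower in SJL against KS, 1 to 2 higher in KS against B6 and 3 to 5 lower in SJL against B6. The replicate numbers of the titles were shared between strains, and mice of the same number were not treated as pairs. Deviations of same-numbered arrays correlated at -0.27 to 0.26, above 0.1 in 3 of 9 pairs, and 4 of 9 arrays matched their own number best. With so few arrays this cannot tell whether those of the same number were handled together. With the replicate block 3315, 1124 and 3509 probe sets were called in the 3 contrasts, with 3, 2 and 2 members, and no call of a member changed. Levels near 5 limit what can be said of Cfb and Cd46.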
